A study of Oryza sativa Japonica Group with 8 samples.

Results

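CRYD, Osnph1b and GLK1 are 3 rice genes: a cryptochrome of the DASH type, a phototropin and a transcription factor of chloroplast development. They were found by their names in the RefSeq gene table, as symbol or synonym, and the platform's annotation gives each of them 1 probe set of its own, so that 3 of 57258 probe sets and 3 of 17905 genes are described here. CRYD is listed as LOC4341749, Osnph1b, which has PHOT2 as a second name, as LOC4335426, and GLK1, also OsGLK1, as LOC4340977. The 3 genes were chosen by their differences from wild-type darkness, in red light and with the transgene, which were known from earlier results on the same arrays. Every difference from that group, and everything computed from such a difference, is therefore given below as a description with no test. The tests of red light within OsYHB and of genotype in red light reuse OsYHB dark or wild-type red light arrays that entered this choice. Their p-values, intervals and ranks for the 3 genes are therefore not independent of it.

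Cryptochromes are blue light photoreceptors that evolved from photolyases, the flavoenzymes that use light to repair ultraviolet damage in DNA. The DASH type is a branch of this family, and its proteins can repair single-stranded DNA in the test tube. Phototropins are blue light receptors as well, with a pair of flavin-binding LOV domains joined to a protein kinase, and in Arabidopsis they direct bending towards light, chloroplast movement and stomatal opening. GLK factors belong to the GARP family of DNA-binding proteins, and in Arabidopsis they switch on genes for light-harvesting proteins and for chlorophyll synthesis. Red light is sensed by phytochromes, so neither CRYD nor Osnph1b encodes the receptor for the light used in this experiment.

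The data are 8 expression arrays of the above-ground part of Nipponbare rice seedlings that were 5 days old, with 2 arrays in each of 4 groups. Wild type was grown at 28 °C in darkness or under red light that was never switched off, at an irradiance of 50 µmol per square metre and second. The other groups are Ubi::OsYHB/Nip seedlings under the same conditions, in which the maize Ubiquitin promoter, active in most tissues, drives OsYHB, an allele of phytochrome B that signals without light. Both OsYHB groups hold 1 array of line 1, with 41-fold overexpression per the labels, and 1 of line 9, with 23-fold, each a single-insertion homozygous line; a difference between the arrays of such a group can therefore lie between lines. Wild-type replicates carry only a number. The PHYB probe set did not show the labelled overexpression. Its log2 intensity was 10.38 and 9.85 in wild-type darkness, 9.83 and 9.89 in wild-type red light, 9.65 in line 1 and 10.04 in line 9 in darkness, and 9.63 and 9.85 in these lines in red light. OsYHB overlapped wild type in both light conditions, with differences of -0.27 in darkness (limma, SE 0.20, adjusted p = 0.396) and -0.12 in red light (SE 0.20, adjusted p = 0.899). Whether the transgene carries the stretch that this probe set reads is not given in the labels, so OsYHB below means the arrays labelled so.

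The median intensity of the arrays lay between 20.4 and 20.9, and the log2 correlation of replicates between 0.992 and 0.996. Of the 8 leaf marker genes looked for, 5 had a probe set, and their summed intensity was 21212 to 22577 in wild-type darkness, against 44585 to 45048 in wild-type red light, 45133 to 47746 in OsYHB darkness and 45767 to 45900 in OsYHB red light. The sum of 7 genes found by root marker names was 1187 to 1504 in wild-type darkness and 923 to 1101 on the other 6 arrays, with Casparian strip gene CASP1 between 3.09 and 3.72 on the log2 scale on all arrays; one of them, listed as both PT2 and GRF4, is a growth factor gene that shares a name with a transporter. The sum of 6 seed and embryo genes was 1612 to 2295 in wild-type darkness, 798 to 1615 in wild-type red light and 765 to 868 on the OsYHB arrays. The 2 wild-type red light arrays differed in that class, with the dehydrin gene RAB21 at a log2 intensity of 4.84 in replicate 1 and 9.14 in replicate 2, although they lay within 0.11 of each other for each of CRYD, Osnph1b and GLK1. The part of these differences between groups in the results below was not tested, and in whole shoots fewer cells of a type and less RNA per cell cannot be told apart.

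CRYD had its highest level in OsYHB seedlings that had seen no light. Its log2 intensity was 6.12 and 5.98 in wild-type darkness, 6.78 and 6.69 in wild-type red light, 8.22 in line 1 and 8.52 in line 9 in darkness, and 7.46 in line 1 and 7.51 in line 9 in red light. No 2 groups overlapped, and the order from low to high was wild type in the dark, wild type in red light, the transgenic lines in red light and the transgenic lines in the dark. On the deposited linear scale the same arrays read 69.5 and 63.1, 110 and 102.9, 298.8 and 367.1, and 175.8 and 181.8.

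The group means of CRYD were 6.05 ± 0.10 (SD, n = 2), 6.73 ± 0.07, 8.37 ± 0.21 and 7.48 ± 0.03, in the same order of groups as the array values above. Relative to wild-type darkness, CRYD was higher by 0.68 on the log2 scale (SE 0.13), or 1.61-fold, in wild-type red light. It was higher by 2.32 (SE 0.13), or 5.00-fold, in OsYHB darkness, a difference that exceeded those of 99.1% of the genes with a probe set. CRYD was chosen by its differences from wild-type darkness, which favours so high a rank. OsYHB darkness stood 1.64 (SE 0.13) above wild-type red light, so the transgene without light went with a 3.11-fold higher CRYD signal than light without the transgene.

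Among OsYHB seedlings CRYD was lower in red light than in darkness in both lines, with a log2 difference of -0.89 (SE 0.13, 95% interval -1.20 to -0.58), which is a 1.85-fold lower signal. This did not pass the threshold (limma, adjusted p = 0.0902 over all probe sets, unadjusted p = 0.000145). The OsYHB dark arrays also entered the choice of the genes, and a gene chosen for a high value there tends to read lower elsewhere. In that comparison 0.0105% of the probe sets were called, and none of the 3 genes was among them, while 1 of the 3, CRYD, had an unadjusted p below 0.05. The share of all genes or probe sets at that unadjusted threshold was not counted. Such counts, here and below, therefore have no background to be read against. The CRYD difference was lower than all but 0.894% of the genes. With replicate number over all arrays as a block the adjusted p was 0.122 (limma). That number is the transgenic line in OsYHB and pairs nothing in wild type, so it is not a block on line. The fit with a line term for OsYHB only had a residual SD of 0.100 for CRYD, beside 0.122 in the main fit. How accounting for line alone changes the CRYD difference between red light and darkness was not tested. Over the alternatives that left out no single array the adjusted p lay between 0.0704 and 0.126. Leaving out single arrays gave differences from -1.04 to -0.74. In wild type the same change of light went with a higher CRYD level, and the effect of red light in the transgenic lines less its effect in wild type was -1.57 (SE 0.19).

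Under red light CRYD was higher in OsYHB than in wild type by 0.75 (SE 0.13, 95% interval 0.44 to 1.06), or 1.68-fold, with both OsYHB arrays above both wild-type arrays. The difference exceeded those of 99.7% of genes and did not pass the threshold either (limma, adjusted p = 0.325, unadjusted p = 0.000475). The wild-type red light arrays used here entered the choice of the genes as well. In that comparison 0.0192% of the probe sets were called, none of the 3 genes with them, and 1 of the 3, CRYD, had an unadjusted p below 0.05.

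**Figure D1:**
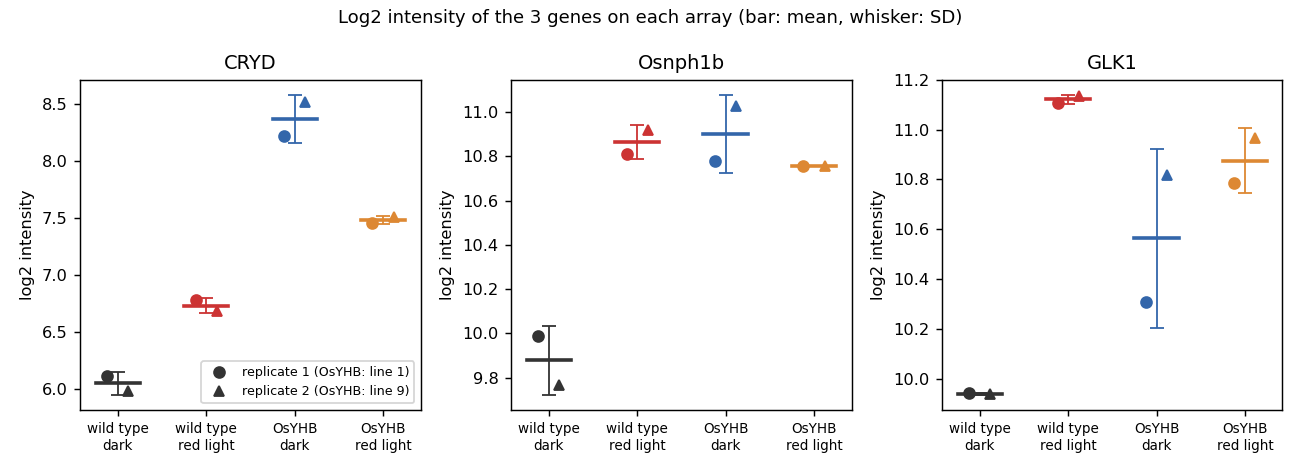
Log2 intensity of CRYD, Osnph1b and GLK1 on each of the 8 arrays, by group. Points are arrays (circle for replicate 1, triangle for replicate 2, which are lines 1 and 9 in OsYHB), bars are group means and whiskers the SD. The axes differ between panels and do not start at 0. CRYD peaks in OsYHB darkness at 8.22 and 8.52, Osnph1b is low in wild-type darkness alone, and GLK1 is highest in wild-type red light.

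Osnph1b had a lower level in wild-type darkness than in the other 3 groups, among which it differed little. Its log2 intensity was 9.99 and 9.77 in wild-type darkness and 10.81 and 10.92 in wild-type red light. In OsYHB it was 10.78 in line 1 and 11.03 in line 9 in darkness, and 10.76 in both lines in red light. Both wild-type dark arrays lay below the other 6 arrays, and OsYHB darkness overlapped wild-type red light.

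The means of Osnph1b were 9.88 ± 0.15 (SD, n = 2) in wild-type darkness, 10.86 ± 0.08 in wild-type red light, 10.90 ± 0.18 in OsYHB darkness and 10.76 ± 0.00 in OsYHB red light. Against wild-type darkness it was higher by 0.99 (SE 0.14), or 1.98-fold, in wild-type red light and by 1.02 (SE 0.14), or 2.03-fold, in OsYHB darkness. Either treatment alone thus went with a similar reading. OsYHB darkness minus wild-type red light was 0.04 (SE 0.14), and it was -0.09 without OsYHB dark replicate 2 and -0.02 without wild-type red replicate 1, so it has no settled sign.

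Adding red light to OsYHB went with a log2 difference in Osnph1b of -0.15 (SE 0.14, limma, adjusted p = 0.665). Its 95% interval was -0.46 to 0.16. Line 1 had almost the same value in darkness and red light, 10.78 and 10.76, and line 9 read 11.03 in darkness and 10.76 in red light. Under red light OsYHB minus wild type was -0.11 (SE 0.14, 95% interval -0.42 to 0.20, adjusted p = 0.862). Its effect of red light in OsYHB less that in wild type was -1.13 (SE 0.19).

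PHOT1A, also listed as Osnph1a, is the closest relative of Osnph1b with a probe set of its own, and it was not called in any of these comparisons. Its log2 intensity was 11.29 and 10.91 in wild-type darkness, 11.27 and 11.42 in wild-type red light, 10.83 and 11.15 in OsYHB darkness, and 10.79 and 11.06 in OsYHB red light. The groups overlapped, apart from wild-type red light, whose arrays lay above those of both OsYHB groups. In wild type PHOT1A differed between light conditions by 0.24 (limma, SE 0.18, adjusted p = 0.475), and in darkness OsYHB minus wild type was -0.11 (SE 0.18, adjusted p = 0.719). Whether PHOT1A and Osnph1b differ in their response was not tested.

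PHOT1B has no probe set of its own. One probe set is annotated to both PHOT1A and PHOT1B, and it read 0.11 higher in wild-type red light than in wild-type darkness (SE 0.16, limma, adjusted p = 0.762). CPT1, the rice relative of Arabidopsis NPH3 that phototropin signalling needs in the coleoptile, lay between 2.54 and 3.09 on all arrays, below the median of every array, which bears on any fold of so dim a probe set. Its log2 differences were -0.25 (SE 0.16, adjusted p = 0.411) in wild-type red light and -0.35 (SE 0.16, adjusted p = 0.173) in OsYHB darkness.

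GLK1 was the gene of the 3 whose highest level came with red light in wild type. Its log2 intensity was 9.94 on both wild-type dark arrays and 11.11 and 11.13 on the wild-type red light arrays. In OsYHB it was 10.31 in line 1 and 10.82 in line 9 in darkness, and 10.78 in line 1 and 10.97 in line 9 in red light. The wild-type groups bracketed all OsYHB arrays, and the OsYHB groups overlapped each other.

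The means of GLK1 were 9.94 ± 0.00 (SD, n = 2) in wild-type darkness, 11.12 ± 0.02 in wild-type red light, 10.56 ± 0.36 in OsYHB darkness and 10.88 ± 0.13 in OsYHB red light. In wild type GLK1 was 1.18 higher in red light (SE 0.17), or 2.27-fold. In darkness OsYHB was 0.62 above wild type (SE 0.17), or 1.54-fold. That value moved with single arrays: it was 0.88 without OsYHB dark replicate 1 and 0.37 without OsYHB dark replicate 2. OsYHB darkness minus wild-type red light was -0.56 (SE 0.17), with -0.30 and -0.81 without the same arrays.

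Within OsYHB, red light minus darkness was 0.31 for GLK1 (SE 0.17, 95% interval -0.08 to 0.70, limma, adjusted p = 0.436). It was 0.06 without OsYHB dark replicate 1 and 0.57 without OsYHB dark replicate 2. Under red light OsYHB minus wild type was -0.25 (SE 0.17, 95% interval -0.63 to 0.14, adjusted p = 0.75), with both OsYHB arrays below both wild-type arrays. The effect of red light in OsYHB less that in wild type was -0.87 (SE 0.24).

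**Figure D2:**
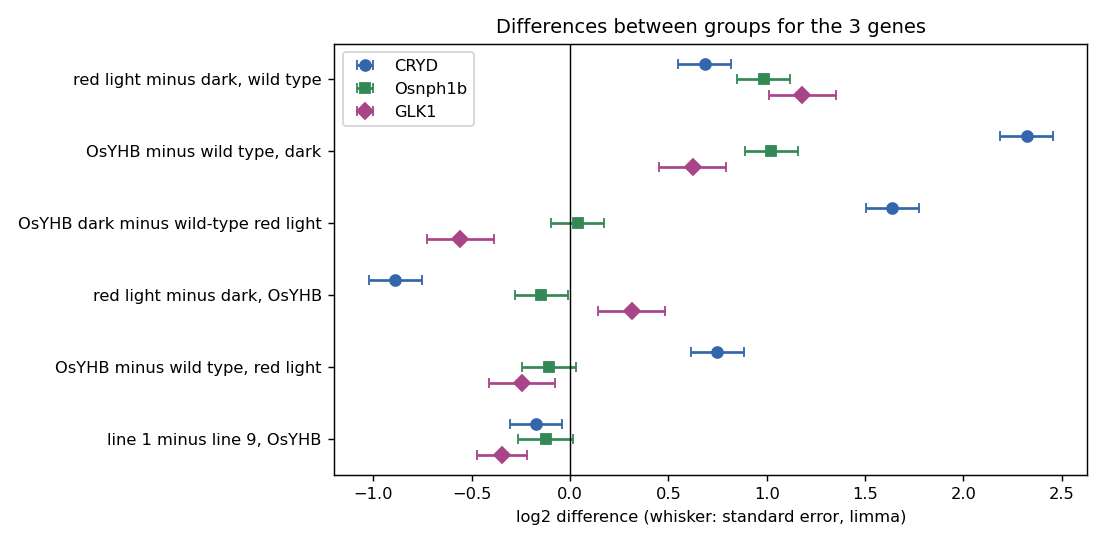
Log2 differences of CRYD, Osnph1b and GLK1 in 6 comparisons, as points with the standard error from limma as whiskers. The 3 uppermost comparisons are descriptions. CRYD is the gene with the largest difference in OsYHB darkness, 2.32, and the only one of the 3 with a value below -0.5 for red light within OsYHB.

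Line 1 read lower than line 9 for CRYD and GLK1 in both light conditions and for Osnph1b in darkness, where line 1 is the line with the stronger overexpression. Over both conditions line 1 minus line 9 was -0.35 for GLK1 (SE 0.13, 95% interval -0.65 to -0.04), -0.17 for CRYD (SE 0.13, 95% interval -0.48 to 0.13) and -0.12 for Osnph1b (SE 0.14, 95% interval -0.45 to 0.20). None of the 3 genes was called (limma, adjusted p = 1 for each), against 0.0541% of all probe sets, and 1 of them, GLK1, had an unadjusted p below 0.05. Each line is 1 array per condition, so a line and a single sample cannot be told apart here.

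GLK2, the paralogue of GLK1, has 4 probe sets, which read alike. The brightest had log2 intensities of 9.26 and 9.44 in wild-type darkness, 9.95 and 10.09 in wild-type red light, 9.47 and 9.68 in OsYHB darkness, and 9.81 and 9.94 in OsYHB red light. Wild-type darkness was lowest, with OsYHB darkness just above it, and OsYHB red light ended just below wild-type red light. In wild type GLK2 rose by 0.67 in red light (limma, SE 0.13, adjusted p = 0.0167), and the other probe sets gave 0.49 (adjusted p = 0.0967), 0.70 (0.013) and 0.68 (0.0363). The brightest lost its call without wild-type dark replicate 1, wild-type red replicate 1 or wild-type red replicate 2 (adjusted p from 0.064 to 0.128) and when the fit was restricted to wild type (0.0542).

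In darkness GLK2 was not called in OsYHB by any of its probe sets, with differences from wild type between 0.08 and 0.32 and adjusted p from 0.192 to 0.783. Red light within OsYHB gave differences between 0.21 and 0.40, with adjusted p from 0.258 to 0.6. GLK1 and the brightest GLK2 probe set had the same order of the 4 group means, with every OsYHB array between the wild-type dark and the wild-type red light arrays.

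**Figure D3:**
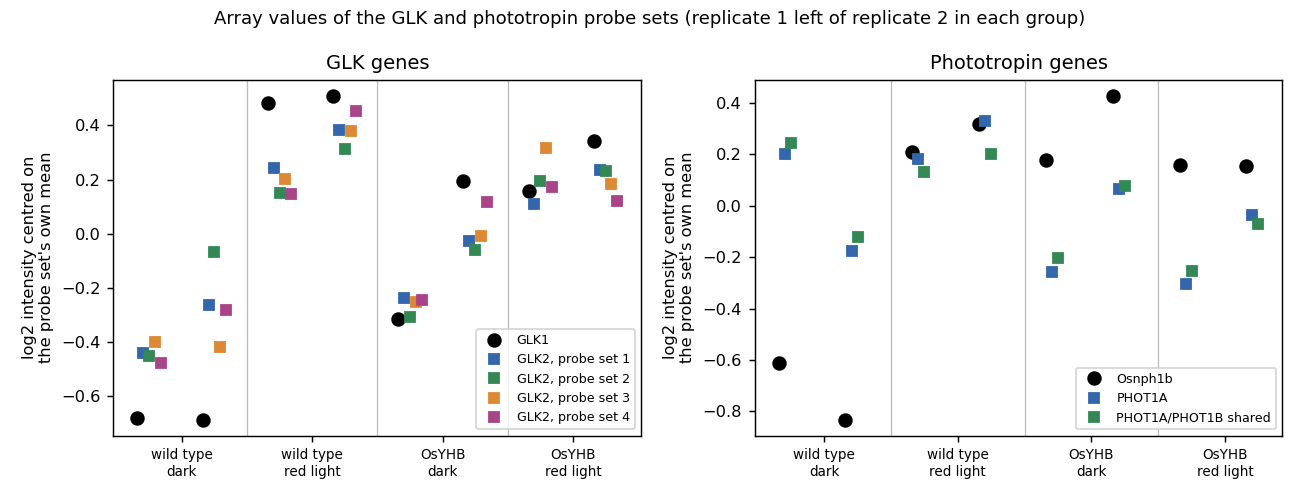
Log2 intensity of each array, centred on the mean of each probe set over the 8 arrays, for GLK1 with the 4 GLK2 probe sets and for Osnph1b with the probe sets of PHOT1A and of PHOT1A and PHOT1B together. Within each group replicate 1 is drawn left of replicate 2. GLK2 runs with GLK1 at a smaller size, and PHOT1A lacks the low wild-type dark arrays of Osnph1b.

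Chlorophyll synthesis and light-harvesting genes are the kind of gene that GLK factors are known to regulate in Arabidopsis. Of the 15 such genes with a probe set, GLK2 included, 10 rose and 1 fell in wild-type red light, where 8.98% of all genes were called higher and 8.13% lower. The median log2 difference of the list was 0.86, beside -0.10 over all genes. In OsYHB darkness 9 rose and 1 fell, where 10.7% of all genes were called higher and 17.3% lower, with a median of 0.81 beside -0.17. The member called in wild-type red light and not in OsYHB darkness was GLK2. Both comparisons share the wild-type dark arrays.

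CHLH, a magnesium chelatase subunit gene, was at 2.15 (SE 0.18) in wild-type red light and 1.49 (SE 0.18) in OsYHB darkness. Its log2 intensities of 10.11 and 9.80 in wild-type darkness, 12.12 and 12.08 in wild-type red light, 11.21 and 11.68 in OsYHB darkness and 11.63 and 11.76 in OsYHB red light followed the same order of means as those of GLK1. These CHLH values are from the brighter of its 2 probe sets, and the other read differently. The effect of red light in OsYHB less that in wild type was -1.90 for the brighter and -0.59 for the mean of both. The gene listed as both CAO and Lls1, a name it shares with a chlorophyll breakdown oxygenase, was at 2.07 (SE 0.14) and 1.24 (SE 0.14). RCABP69, a chlorophyll a/b-binding protein gene, was at 2.28 (SE 0.19) and 2.19 (SE 0.19), so its OsYHB dark arrays, at 12.88 and 13.04, came up to those of wild-type red light, at 13.04 and 13.05. PORA, a protochlorophyllide oxidoreductase gene with high expression in darkness, fell by 1.15 (SE 0.16) and by 1.00 (SE 0.16). The remaining 4 genes of the list were not called in either comparison. PORB lost its call in both comparisons, and CHLD its call in wild-type red light, without 1 array (adjusted p from 0.0508 to 0.0789 for PORB and 0.0728 to 0.185 for CHLD).

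Within OsYHB, red light called none of the 15 genes, and in red light the genotype called none, against 0.0168% and 0.0279% of all genes (limma; 3 and 4 of the 15 had an unadjusted p below 0.05). PORA had the largest of these differences, -1.11 (SE 0.16, adjusted p = 0.0815) and -0.96 (SE 0.16, adjusted p = 0.21). Like CRYD, PORA thus read lower under red light in both OsYHB lines, at 11.61 and 11.85 in darkness and 10.54 and 10.70 in red light. Unlike CRYD, it also read lower under red light in wild type.

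Of the 9 other light sensing and signalling genes with a probe set, none rose and 2 fell in wild-type red light. There 8.98% of all genes rose and 8.13% fell, so a list of 9 with no rise is near the share of all genes. The counts were the same in OsYHB darkness, where 10.7% of all genes rose and 17.3% fell, shares near those of the list. With an intensity trend or an offset of 16, 4 or 5 genes of the list were called there. PHYA, the phytochrome gene for far-red light sensing, had log2 differences of -1.19 (SE 0.13) and -1.43 (SE 0.13). GF14b, a 14-3-3 protein gene, had -0.93 (limma, SE 0.18, adjusted p = 0.0145) and -1.11 (SE 0.18, adjusted p = 0.00498). GF14b lost its call in wild-type red light without wild-type red replicate 1 (adjusted p = 0.0781) or replicate 2 (0.106), and when the fit was restricted to wild type (0.0605). The median difference of the list was -0.25 in wild-type red light and -0.32 in OsYHB darkness, beside -0.10 and -0.17 over all genes. GI, a clock gene also needed in photoperiod sensing, read 0.39 (SE 0.12, adjusted p = 0.0746) and 0.30 (SE 0.12, adjusted p = 0.118). Within OsYHB, red light called none of the 9, and in red light the genotype called none, against 0.0168% and 0.0279% of all genes (limma; 1 and 2 of the 9 had an unadjusted p below 0.05).

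PHR, the gene of the photolyase that repairs cyclobutane pyrimidine dimers in rice, is a photolyase with a probe set of its own. Its log2 intensity was 7.41 and 7.38 in wild-type darkness, 8.04 and 8.01 in wild-type red light, 8.01 and 8.33 in OsYHB darkness and 7.85 and 8.12 in OsYHB red light. In wild type PHR rose by 0.63 under red light (limma, SE 0.15, adjusted p = 0.0309). In darkness it was 0.78 higher in OsYHB (SE 0.15, adjusted p = 0.00978). The other 3 groups overlapped, so PHR had no separate peak in OsYHB darkness such as that of CRYD. Its mean was still highest there, at 8.17, beside 8.03 in wild-type red light and 7.99 in OsYHB red light. As with CRYD, both lines read lower in red light than in darkness. The effect of red light in OsYHB less that in wild type was -0.82 for PHR (limma, SE 0.21, adjusted p = 0.0712). The first call was lost without any single one of the 4 wild-type arrays (adjusted p from 0.0816 to 0.151), and the second without OsYHB dark replicate 2 (0.0736).

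The photolyase and excision repair names gave 4 genes in all. RAD23, an excision repair factor gene, fell by 0.56 in OsYHB darkness (limma, SE 0.12, adjusted p = 0.0162), which was lost without OsYHB dark replicate 1 (0.0645) or replicate 2 (0.0936) and with the mean of its probe sets (0.0999). CSB was not called in any comparison, and neither was PHR1, a name that in rice is also that of a phosphate starvation regulator. In wild-type red light 1 of the 4 rose and none fell, beside 8.98% and 8.13% of all genes. In OsYHB darkness 1 rose and 1 fell, beside 10.7% and 17.3%.

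**Figure D4:**
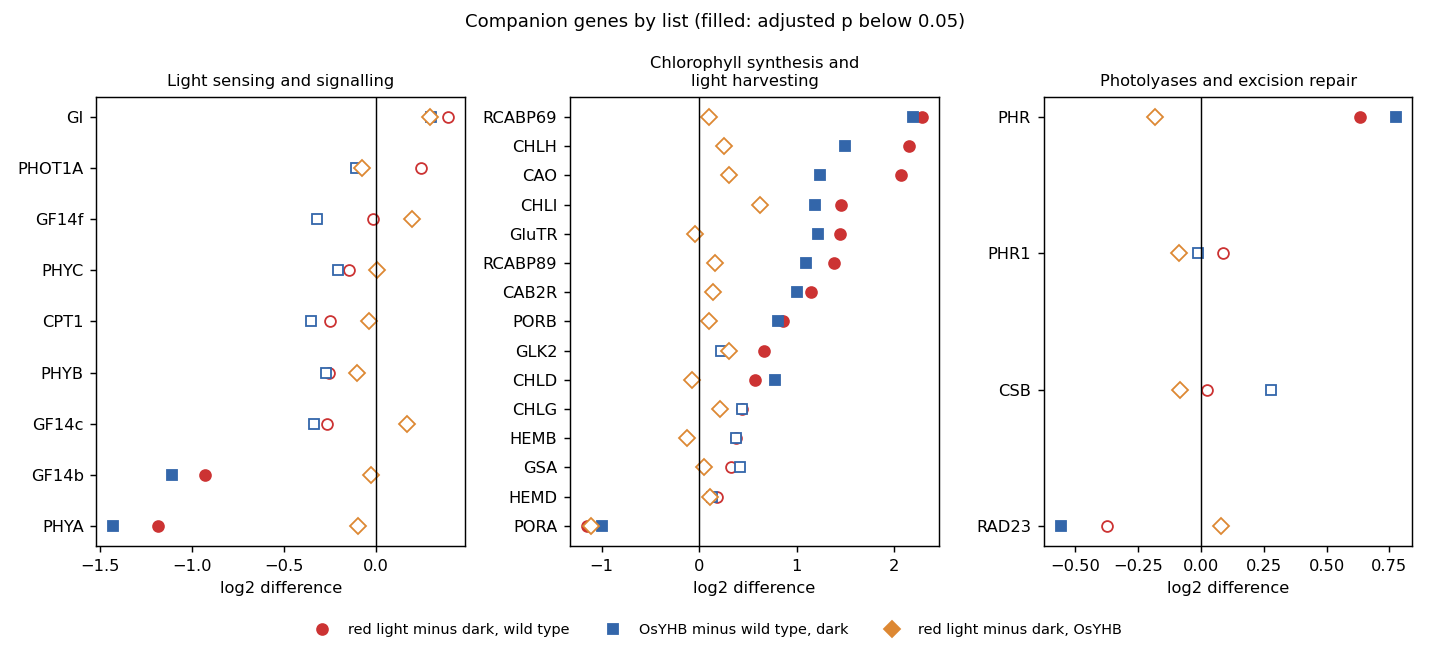
Log2 differences of the companion genes, by list, for red light minus dark in wild type (circles), OsYHB minus wild type in darkness (squares) and red light minus dark in OsYHB (diamonds). Filled points have an adjusted p below 0.05. The chlorophyll genes lie right of 0 for the first pair of comparisons, apart from PORA, and no diamond is filled.

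The named genes with the profile nearest to each of the 3 were found by the root mean square difference of log2 values over the 8 arrays, after each gene was centred on its own mean, among 2455 named genes. For CRYD the nearest was 4CL.2 (4CL2, a 4-coumarate:CoA ligase gene of phenylpropanoid synthesis) at 0.22, then AMY1.3 (the alpha-amylase gene RAmy3D) at 0.29, OsPP2C01 at 0.35, the plastid sigma factor gene OsSig2B at 0.37 and the cytokinin-activating LOG at 0.38. All 5 were lowest in wild-type darkness and highest in OsYHB darkness, as CRYD was. Such a likeness comes from the choice by nearness on these same arrays, here and for the neighbours of Osnph1b and GLK1 below. Among all 17902 other genes, 25 lay as near to CRYD as LOG or nearer. The distance is not scaled, so it also grows with the size of a gene's differences.

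For Osnph1b the nearest named genes were THF1, a thylakoid formation gene, at 0.06, ADI1, listed as a ferredoxin gene, at 0.08, ABCG42 at 0.08, TPT, the chloroplast triose phosphate translocator gene, at 0.10, and ISP (petC, the Rieske iron-sulfur protein of the photosynthetic electron chain) at 0.10. In each of them the wild-type dark mean was lower than the other group means by over 0.8. For GLK1 they were CLA1, the gene of the first enzyme of plastid isoprenoid synthesis, at 0.14, ABA1, a zeaxanthin epoxidase gene, at 0.15, HCT3 at 0.15, the NPR1 family gene NH3 at 0.18 and PAP2 at 0.19. CLA1, ABA1, HCT3 and PAP2 had the order of means of GLK1, and NH3 did not. The centred means of CLA1 were -0.78, 0.70, -0.13 and 0.20, beside -0.69, 0.50, -0.06 and 0.25 for GLK1.

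Between the 3 genes themselves, the distance was 0.24 for Osnph1b and GLK1, 0.61 for Osnph1b and CRYD and 0.82 for CRYD and GLK1. Of the other genes, 742 were at least as near to Osnph1b as GLK1 was, and 3433 were at least as near to CRYD as GLK1 was. CRYD and GLK1 were both lowest in wild-type darkness, and the order of their other 3 group means was reversed.

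**Figure D5:**
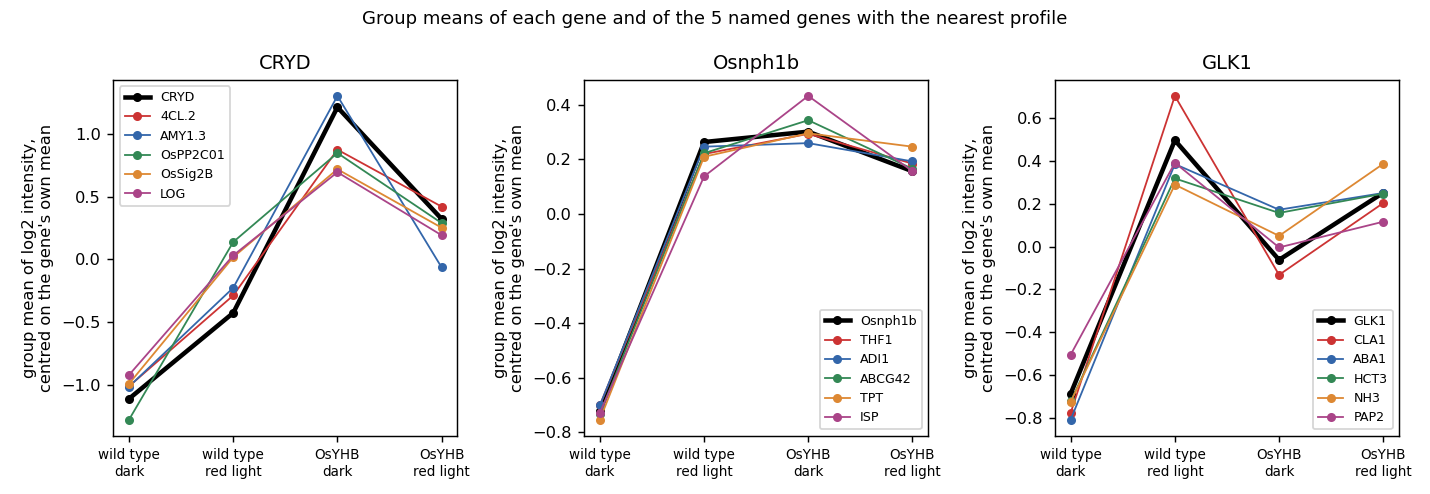
Group means of log2 intensity, centred on each gene's own mean over the 8 arrays, for CRYD, Osnph1b and GLK1 (thick black) and the 5 named genes with the nearest profile (thin). Lines join the 4 groups of a gene and stand for no time course. The CRYD panel peaks in OsYHB darkness at 1.21, the Osnph1b panel is flat after wild-type darkness, and the GLK1 panel peaks in wild-type red light at 0.50.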

How the data were processed

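The authors deposited 1 linear intensity per probe set and array. The submitters' processing notes name GCOS, RMA and limma, without version, role or order. The background model and genome build are not stated there. The values look normalized between arrays and carry no detection call, so low intensities may be background and their folds compressed. The number of arrays limits the precision. After 123 control probe sets were left out, log2 intensities of 57258 probe sets were fitted with limma 3.58.1 (R 4.3.3) as 4 group means over all 8 arrays (4 residual and 4.27 prior degrees of freedom), two-sided, with Benjamini-Hochberg adjustment over all probe sets and calls at an adjusted p below 0.05. The line term was 0 in wild type. The code was tested on simulated data. Per the labels replicates are biological. GEO's platform annotation gave 1 gene to 22436 probe sets, several to 95 and none to 34727, named through RefSeq. A companion gene is its brightest probe set. Names found no gene for many planned list members, cryptochromes CRY1 and CRY2 included. The genes, lists, markers and tests were chosen with earlier results of these data known. Named companions are called genes of each list and the closest relatives. They are not all of the called genes with the largest differences. CHLI, at 1.45 in wild-type red light, and GluTR, at 1.44, had larger differences than PORB and CHLD but are not described with their list. CPT1, GI, CSB, PHR1, HEMB and GF14c were named after their values were seen. Replicate numbers pair OsYHB arrays by line, with a correlation of deviations from group means of 0.145 between both OsYHB groups, and nothing in wild type (0.093). Alternatives were quantile normalization, median centring, an offset of 16, an intensity filter, an intensity trend, a replicate block, fewer arrays and averaged probe sets.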

Additional observations from a re-analysis of the deposited data

Results flagged for a closer look

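The response of CRYD to red light ran in opposite directions in the 2 genotypes: every wild-type red light array was above every wild-type dark array, and every OsYHB red light array was below every OsYHB dark array. The effect of red light in OsYHB less that in wild type was -1.57 on the log2 scale, and this difference was not tested, since the gene was picked with part of it known. Osnph1b met the same description, with -1.13, also not tested, although its OsYHB arrays came within 0.02 of each other between light conditions in line 1. The flag for this pattern was set for CRYD, Osnph1b and GLK1 alone, and the pattern is not particular to them. How many of all genes meet it was not counted. HEMB of the chlorophyll list met it, at -0.51 (limma interaction, adjusted p = 0.145). GF14c and Dhn1 met its mirror form, with lower values under red light in wild type and higher ones in OsYHB. The leaf marker genes GLO1, LFNR1 and RBCS met the description too, with -2.39, -2.02 and -0.41. These values were mostly the rise in wild type, at 2.03, 1.90 and 0.30. Within OsYHB red light minus darkness was -0.36 (limma, adjusted p = 0.326), -0.12 (0.699) and -0.11 (0.686), not called for any of them. For RBCS the value of -0.41 was not called either (limma interaction, adjusted p = 0.18). The leaf markers CAB2R and RCABP69 did not meet the description.

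Among the companion genes the same difference passed its test (limma interaction, adjusted p from 0.00322 to 0.0173) for PHYA at 1.09, which was lower under red light by less in OsYHB than in wild type, and, with a smaller rise or none in OsYHB, for RCABP69 at -2.19, CHLH at -1.90, CAO at -1.77, GluTR at -1.48, RCABP89 at -1.21 and CAB2R at -1.01. At the level of genes 2.87% were called higher and 4.97% lower in that comparison. Of the marker genes outside the companion lists, GLO1 at -2.39, LFNR1 at -2.02 and Dhn1 at 1.00 passed it too (limma interaction, adjusted p from 0.0012 to 0.0296). PHYA was called in 3 of the 8 fits that left out 1 array, with adjusted p from 0.0591 to 0.0805 in the others, and CAB2R in 4 of 8, with 0.0518 to 0.0748. CHLH lost the call with the mean of its probe sets, at -0.59 (adjusted p = 0.0794).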

How the results depend on the processing

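No alternative changed a call for CRYD, Osnph1b or GLK1 in the 3 tested comparisons. For CRYD in red light against dark within OsYHB the adjusted p (limma) ranged from 0.0704 to 0.126 over the alternatives that left out no single array. The fit with the replicate block, which is not a block on line, gave -0.89 with an adjusted p of 0.122. The block changed no call of these 3 genes. An offset of 16 moved CRYD to 2.08 for OsYHB in darkness, to 1.504 for OsYHB darkness against wild-type red light and to -1.41 for the interaction. Leaving out 1 array at a time gave ranges of 2.17 to 2.47, 1.49 to 1.79 and -1.72 to -1.42 for these in CRYD. The same differences ranged from 0.90 to 1.15, -0.086 to 0.163 (reversed at -0.086 and -0.016 without OsYHB dark replicate 2 and wild-type red replicate 1) and -1.25 to -1.01 in Osnph1b and from 0.37 to 0.88, -0.81 to -0.30 and -1.12 to -0.61 in GLK1, and line 1 against line 9 from -0.249 to 0.002 in Osnph1b (0.002 without either OsYHB dark array). Of the lists, light sensing genes had 1 call in wild-type red light on the arrays of both groups alone and 1 to 2 without an array, 4 with an intensity trend and 5 with the offset in OsYHB darkness, and 0 to 2 for the interaction without an array. The intensity trend called 1 chlorophyll gene in red light within OsYHB. The repair list had 2 calls with the offset and 0 to 1 without an array in wild-type red light, 1 with averaged probe sets or fewer arrays and 0 to 2 without an array in OsYHB darkness, and 1 for the interaction with the intensity filter. The cause was not tested. Where an array is left out, its lone partner is assumed to vary like the other groups.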
